A study of Mus musculus with 12 samples.

Results

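The genes described here encode the SR and hnRNP splicing factors and their close partners. Members were chosen by gene symbol alone: the Srsf, Hnrnp, Sf3a, Sf3b and U2af genes, Tra2a, Tra2b, Rbm25, Rbm39, Son, Srrm1, Srrm2, the kinases Clk1 to Clk4, Srpk1 and Srpk2, with pseudogene copies left out. This gave 55 genes, found in both the 40077 genes listed for cells and the 34508 genes listed for tumors. By role they were 11 SR proteins, 20 hnRNP proteins, 11 subunits of SF3 and U2AF, 7 SR-related proteins and 6 SR protein kinases.

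SR proteins bind short exonic sequences in the pre-mRNA and recruit the splicing machinery through a domain rich in arginine and serine, whereas hnRNP proteins coat the pre-mRNA and more often keep exons from being used. U2AF reads the end of the intron, and SF3A and SF3B hold the U2 particle on the branch site. The CLK and SRPK kinases phosphorylate the arginine-serine domains and thereby set where SR proteins reside and when they act. Many of these genes regulate their own mRNA through alternative exons.

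RNA was sequenced from Myc-CaP cells, a line from a prostate carcinoma of a mouse carrying a prostate-specific MYC transgene, after 24 hours with DMSO or with 1 μM YJ1206, a PROTAC that targets the kinases CDK12 and CDK13 for degradation. It was also sequenced from Myc-CaP tumors grown under the skin of male FVB mice, an immunocompetent host, dosed orally with vehicle or with 100 mg/kg of YJ1206, 3 times a week. Each of the 4 groups had 3 libraries, all carried the same MYC-driven line, and the labels do not state the age of the mice. The study's methods describe ribosomal RNA depletion and independent replicates, whereas the labels give polyA RNA for cells and total RNA for tumors and do not tie libraries to cultures or animals, so the p-values measure the spread between these libraries.

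Total estimated counts ranged from 13936902 to 18519926 in cells and from 15391544 to 26928365 in tumors. The library numbers of the DMSO and YJ1206 cells come from separate series, so a difference in preparation and the treatment cannot be told apart. Among genes whose libraries 1 and 2 differed by more than 0.5 on the log2 scale, a choice that itself favours library 3 lying in between, library 3 lay between them for 96.4% of 1651 genes in vehicle and 95.7% of 716 in YJ1206 tumors. In cells it was 80% of 40 genes with DMSO and 77.8% of 36 with YJ1206. Over the 54 members tested, with no such choice, library 3 lay between the others for 39 in vehicle and 32 in YJ1206 tumors. In cells it was 24 with DMSO and 11 with YJ1206. Whether library 3 is independent of libraries 1 and 2 was not tested. If it is not, the tumor SEs and p-values are too small. Tumor results are also given for libraries 1 and 2 alone. Of the targets, Cdk12 counts were higher with YJ1206 in cells (log2 fold change 0.58 ± 0.035 SE, adjusted p = 2.3e-14) and tumors (0.35 ± 0.070 SE, adjusted p = 0.011). Ccnk, its cyclin, was higher in cells (0.42 ± 0.038 SE, adjusted p = 1.1e-10) and had −0.11 in tumors (adjusted p = 0.25). Cdk13 passed in neither in the edgeR fit with TMM scaling (0.03, adjusted p = 0.55, and 0.06, adjusted p = 0.47). By total counts and on log2(TPM + 1) all 3 genes were called in cells, 2 higher and 1 lower, so the Cdk13 call there depended on scaling. Degradation acts on protein, so transcripts do not check it.

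Levels per transcript length are given as TPM, transcript counts corrected for length and scaled to the same sum in every library. Together the 55 genes held 1.72% to 1.74% of all TPM in DMSO cells and 1.59% to 1.62% in YJ1206 cells, and 1.01% to 1.10% in vehicle tumors and 0.797% to 0.855% in YJ1206 tumors. In both materials the treated libraries lay below every control library. In cells this was no trait of the members, whose median change on log2(TPM + 1) was −0.21, against −0.24 over all genes. In tumors it was −0.35, against −0.04. The hnRNP genes made up most of this sum. The 3 most abundant members in DMSO cells were Hnrnpa1 and Hnrnpa2b1, which bind exonic silencers, and Hnrnpab. With DMSO, Hnrnpa1 stood at 2015 ± 28.9 TPM (SD, n = 3) and Hnrnpa2b1 at 1961 ± 42.8 TPM, neighbours in this order whose libraries overlapped. Hnrnpab followed at 1143 ± 5.54 TPM. In vehicle tumors Hnrnpa2b1 led at 1006 ± 123 TPM, and its libraries ran from 877 to 1121 TPM, so that the lowest lay just above the highest Hnrnpa1 library at 867 TPM. Srsf12 was the only member near the floor, with at most 2 counts per cell library and 3 to 11 per tumor library, and it was not tested in either material.

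**Figure D1:**
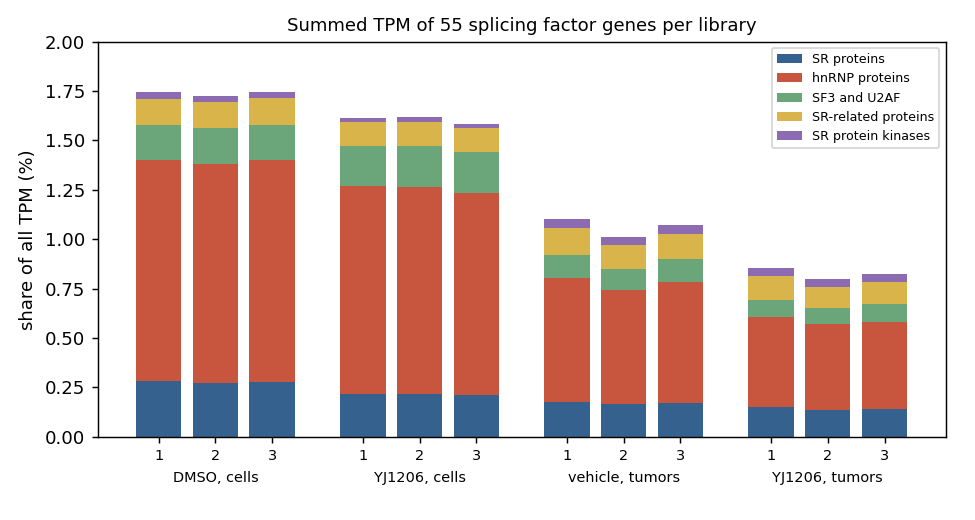
Stacked bars give, for each of the 12 libraries, the share of all TPM (%) held by the 55 splicing factor genes, split by role, with the axis starting at 0. YJ1206 libraries (1.59% to 1.62% in cells, 0.797% to 0.855% in tumors) lie below their controls, and hnRNP genes form the largest block. In cells the median gene also fell on the TPM scale (−0.24, members −0.21).

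To show the upstream regions of the members at the ends of the response, the 250 bases before the annotated start are printed for Sf3b1 and Clk2, the largest rise and fall in cells in the TMM fit, and Hnrnpd, the largest fall in tumors. Sequences are from RefSeq on GRCm38.p6, read 5′ to 3′ on the strand of the gene, at chr1:55027479-55027728 (minus strand), chr3:89164545-89164794 (plus strand) and chr5:99978939-99979188 (minus strand). Capitals mark matches on either strand to CACGTG (the E-box that MYC can bind), CCAAT (the box bound by NF-Y), CCGGAAG (an ETS motif), GGGCGG (an Sp1 motif) or TATAAA.
Sf3b1: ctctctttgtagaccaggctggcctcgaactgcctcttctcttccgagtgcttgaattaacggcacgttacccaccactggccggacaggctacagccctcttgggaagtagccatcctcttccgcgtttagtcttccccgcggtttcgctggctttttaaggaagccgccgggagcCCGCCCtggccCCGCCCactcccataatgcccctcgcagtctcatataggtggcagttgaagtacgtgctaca
Clk2: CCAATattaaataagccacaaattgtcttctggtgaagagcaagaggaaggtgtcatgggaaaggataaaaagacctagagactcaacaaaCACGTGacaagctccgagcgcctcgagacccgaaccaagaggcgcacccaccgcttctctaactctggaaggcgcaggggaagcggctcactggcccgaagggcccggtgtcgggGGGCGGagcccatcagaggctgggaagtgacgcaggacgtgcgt
Hnrnpd: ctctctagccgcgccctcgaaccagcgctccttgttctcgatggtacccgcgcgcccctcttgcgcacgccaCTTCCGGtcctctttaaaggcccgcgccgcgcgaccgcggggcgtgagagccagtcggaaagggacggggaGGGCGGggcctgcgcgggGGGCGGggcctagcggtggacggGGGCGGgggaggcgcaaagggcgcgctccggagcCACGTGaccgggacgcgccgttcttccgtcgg
The table held 67 start sites for 49 of the 55 members. CACGTG was in 5.97% of these windows and in 6.02% of all 32851 windows. GGGCGG was in 70.1% of member windows against 32.7% of all, CCGGAAG in 25.4% against 6.91%, CCAAT in 46.3% against 33.8% and TATAAA in 7.46% against 12.4%. Sf3b1 held only GGGCGG matches, read on the other strand as CCGCCC. Clk2 and Hnrnpd were among the 4 members with a CACGTG, the others being Hnrnpa3 and Hnrnpf.

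YJ1206 changed splicing factor transcripts in both directions in Myc-CaP cells. Of the 54 members tested, 48 passed an adjusted p of 0.05 in edgeR's quasi-likelihood test, 31 higher and 17 lower. The background was high, since 76.1% of all 11826 genes tested passed, 37.8% higher and 38.3% lower, and CPM did not overlap between groups for 49 members against 77.5% of all genes. The median log2 fold change of the members was 0.14, against −0.02 over all genes. The split between higher and lower depended on scaling. Scaled to total counts it was 24 higher and 27 lower (median −0.04, all genes −0.20), where 77.7% of all genes passed, 28% higher and 49.7% lower, and on log2(TPM + 1) in limma it was 16 higher and 31 lower (median −0.21, all genes −0.24), where 73.4% of all genes passed, 21.4% higher and 52% lower. Of the 48 called members, 38 had the same sign under all 6 scalings, 21 higher and 17 lower. Directions below hold under all of them unless stated. Counts by role below are to be read against the shares of all genes given here.

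Most subunits that recognise the 3′ end of the intron rose in cells. All 11 SF3 and U2AF genes passed, 9 higher and 2 lower, with a median log2 fold change of 0.48. Sf3b1, the SF3B subunit that clamps the branch site, had 441, 419.5 and 428 CPM with DMSO and 805, 823 and 816 CPM with YJ1206, so the groups stood far apart. Its log2 fold change was 0.92 ± 0.025 (SE, adjusted p = 6.8e-22), the largest of any member in the TMM fit. On log2(TPM + 1) it was 0.62, below Hnrnpr at 0.64. U2af2, which binds the polypyrimidine tract, had 345, 362 and 349 CPM with DMSO and 561, 587 and 604 CPM with YJ1206, a log2 fold change of 0.73 ± 0.029 (SE, adjusted p = 2.1e-18). Its partner U2af1, which contacts the AG at the intron end, had 104, 108 and 105 CPM with DMSO and 168, 166 and 173 CPM with YJ1206. The U2af1 change was 0.68 ± 0.037 (SE, adjusted p = 2.0e-15), and neither U2AF gene had overlapping groups. Sf3b6, the branch-site protein also called p14, had 76.9, 71.5 and 70.6 CPM with DMSO and 112, 111 and 118 CPM with YJ1206 (0.64). The remaining SF3 genes that rose were Sf3b3 (0.51), Sf3a3 (0.48), Sf3a2 (0.40), Sf3b4 (0.40) and Sf3a1 (0.33). On log2(TPM + 1) Sf3a1 was at 0.02 and Sf3b4 at 0.09, and neither passed there. Against this direction, Sf3b5, a small SF3B subunit, had 35.5, 34.3 and 32.3 CPM with DMSO and 22.8, 23.2 and 26.4 CPM with YJ1206, a change of −0.50 ± 0.072 (SE, adjusted p = 5.2e-07). Sf3b2 had 580.3, 589.6 and 564 CPM with DMSO and 494, 488 and 482 CPM with YJ1206 (−0.24), also without overlap.

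SR protein genes were more often lower than higher in cells. Of 10 tested, 9 passed, 3 higher and 6 lower, with a median of −0.10. Srsf9 had 100.4, 101 and 95.5 CPM with DMSO and 76.7, 74.3 and 74.9 CPM with YJ1206, a log2 fold change of −0.39 ± 0.041 (SE, adjusted p = 1.6e-09). Srsf10, which turns from activator to repressor on dephosphorylation, had 308, 299.9 and 310.0 CPM with DMSO and 257, 249 and 245 CPM with YJ1206 (−0.29). Srsf1, the founding SR protein and also a proto-oncogene, had 798, 747 and 776 CPM with DMSO and 686, 678 and 647 CPM with YJ1206 (−0.21). In each of these 3 genes every treated library lay below every control. Srsf5 (−0.11), Srsf11 (−0.11) and Srsf6 (−0.09) fell by less, and Srsf2 had −0.05 (adjusted p = 0.11), but was called lower by total counts (−0.23) and on log2(TPM + 1) (−0.37). Among those higher, Srsf4 had 66.9, 68.6 and 70.4 CPM with DMSO and 84.0, 89.3 and 91.8 CPM with YJ1206, a change of 0.36 ± 0.044 (SE, adjusted p = 3.0e-08). Srsf7 had 175, 173 and 162 CPM with DMSO and 211, 212 and 203 CPM with YJ1206 (0.29), but −0.05 on log2(TPM + 1). Srsf3, the smallest SR protein, was 0.18 in the TMM fit, −0.01 by total counts and −0.13 on log2(TPM + 1), so its direction rests on the scaling. On the TPM scale no SR protein gene was called higher and 8 were called lower, where 21.4% of all genes were higher and 52% lower. In the TMM fit 37.8% of all genes were higher and 38.3% lower.

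Among the SR-related genes, 6 of 7 were called higher and 1 lower in cells in the TMM fit, with a median of 0.20. It was 3 and 3 by total counts and 1 and 5 on log2(TPM + 1). Tra2a, which binds GA-rich exonic enhancers, had 161, 156 and 158 CPM with DMSO and 245, 255 and 258 CPM with YJ1206. Its log2 fold change was 0.67 ± 0.033 (SE, adjusted p = 2.5e-16), with no overlap. Its paralog Tra2b had 271, 254 and 260.0 CPM with DMSO and 269, 294 and 275 CPM with YJ1206, groups that overlapped, and changed by 0.09 ± 0.034 (SE, adjusted p = 0.015). Rbm39, a U2AF-like protein, had 240.4, 242 and 245 CPM with DMSO and 303, 313 and 315 CPM with YJ1206 (0.36). The speckle scaffold genes Srrm2 (0.24), Srrm1 (0.20) and Son (0.11) were also called higher. Rbm25 had 360.2, 357 and 371 CPM with DMSO and 329.6, 336 and 330.4 CPM with YJ1206 (−0.13) and was called lower. Srrm2, Srrm1, Son and Tra2b turned negative on log2(TPM + 1), at −0.09, −0.21, −0.25 and −0.23, Son and Tra2b also by total counts, whereas Tra2a was at 0.36.

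The hnRNP genes held the widest range in cells, from −0.78 to 0.88. Of 20 tested, 11 were called higher and 5 lower in the TMM fit. The majority turned with the scaling, to 8 higher and 11 lower by total counts and 7 higher and 12 lower on log2(TPM + 1). All genes moved the same way, from 37.8% higher and 38.3% lower to 28% and 49.7%, and to 21.4% and 52%. Hnrnpr had 189, 189 and 187 CPM with DMSO and 348, 343 and 347 CPM with YJ1206, a log2 fold change of 0.88 ± 0.029 (SE, adjusted p = 4.7e-20). Hnrnpa0 had 283, 281 and 277 CPM with DMSO and 441, 440.3 and 479 CPM with YJ1206 (0.69). Hnrnpa1, already the most abundant member per length, rose further, from 1859.7, 1836 and 1871 to 2582, 2607 and 2537 CPM. Its change was 0.47 ± 0.020 (SE, adjusted p = 7.2e-18). Hnrnpll, known for controlling alternative exons of the leukocyte gene Ptprc, had 127, 116 and 113 CPM with DMSO and 189.7, 179 and 192 CPM with YJ1206 (0.65). Hnrnpm (0.55), the uridine-tract binder Hnrnpc (0.50), the G-tract binder Hnrnpf (0.42) and the C-rich binder Hnrnpk (0.32) followed. Hnrnpl (0.21), Hnrnpu (0.10) and Hnrnpa2b1 (0.09) were called higher too, but each was negative on log2(TPM + 1), at −0.14, −0.21 and −0.22, and the last 2 also by total counts.

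At the other end, Hnrnpdl, a relative of Hnrnpd, had 329.7, 314 and 329.7 CPM with DMSO and 187, 191 and 189.6 CPM with YJ1206. Its change of −0.78 ± 0.031 (SE, adjusted p = 2.9e-18) was the largest fall of an hnRNP gene in cells. Hnrnph3 had 33.8, 30.2 and 35.4 CPM with DMSO and 21.3, 20.2 and 23.9 CPM with YJ1206 (−0.60). Hnrnpa3 had 538, 528 and 514 CPM with DMSO and 402, 383 and 378 CPM with YJ1206 (−0.44). All treated libraries of these 3 genes lay below the controls. Hnrnph1 (−0.20) and Hnrnpul1 (−0.20) also fell. For Hnrnpd, Hnrnpab, Hnrnph2 and Hnrnpul2 the values were −0.01, −0.01, 0.05 and −0.04 in the TMM fit, none past the threshold. All 4 were called lower by total counts (−0.20, −0.20, −0.14 and −0.23) and on log2(TPM + 1) (−0.40, −0.37, −0.25 and −0.34). Hnrnpd had 449.8, 454 and 453 CPM with DMSO and 453, 447 and 444 CPM with YJ1206, which overlapped, but 744, 756 and 744 TPM with DMSO and 571, 575 and 549 TPM with YJ1206, which did not.

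The kinases split. Clk2 had 31.2, 32.9 and 32.2 CPM with DMSO and 17.6, 17.5 and 17.8 CPM with YJ1206. This was the largest fall of any member in the TMM fit, −0.87 ± 0.072 (SE, adjusted p = 2.0e-11). On log2(TPM + 1) it was −0.998, against −1.13 for Hnrnpdl. Clk4 had 42.7, 40.7 and 38.9 CPM with DMSO and 32.9, 32.5 and 31.1 CPM with YJ1206 (−0.34), and Srpk1, a mainly cytoplasmic kinase needed for import of SR proteins, had 172, 168 and 170.0 CPM with DMSO and 136, 127 and 135 CPM with YJ1206 (−0.36). No library of these 3 genes overlapped the other group. Srpk2 went up, with 43.2, 42.2 and 37.0 CPM with DMSO and 51.0, 55.2 and 54.8 CPM with YJ1206 (0.39 ± 0.060 SE, adjusted p = 1.4e-06). Clk3 was called higher (0.30), but was at −0.08 on log2(TPM + 1). Clk1 had 58.0, 47.4 and 52.5 CPM with DMSO and 51.2, 51.8 and 53.5 CPM with YJ1206, overlapping groups, and a value of −0.01 ± 0.061 (SE, adjusted p = 0.86). By total counts it was called lower at −0.20 (adjusted p = 0.0045) and on log2(TPM + 1) at −0.31 (limma, adjusted p = 0.0046), where the TPM groups did not overlap.

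**Figure D2:**
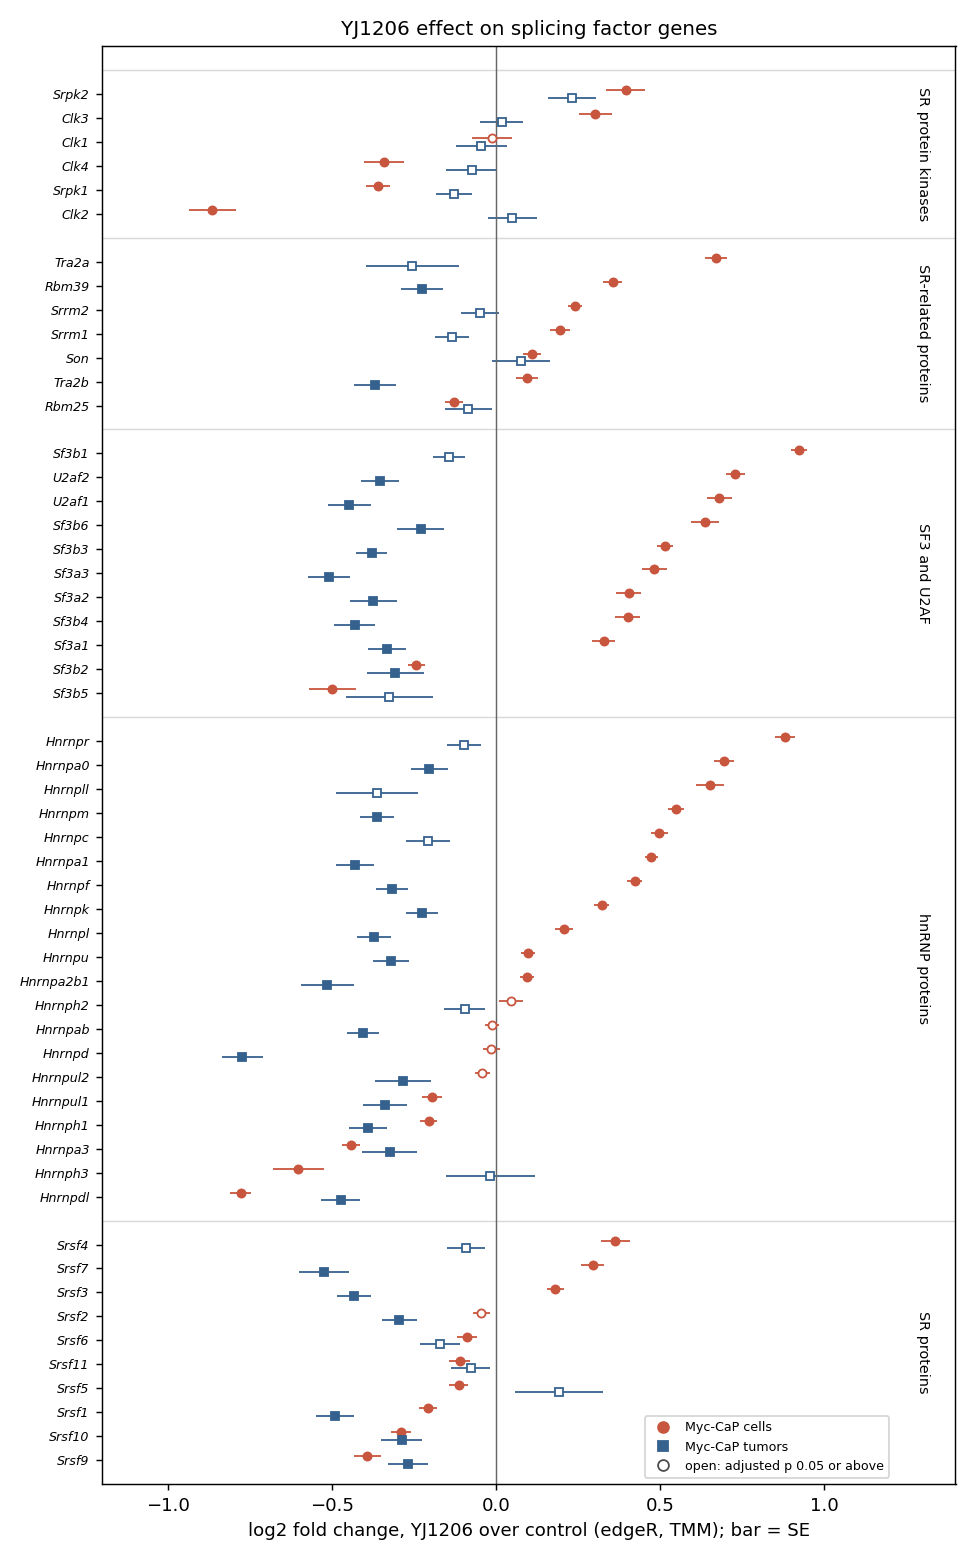
Points give the fitted log2 fold change (x axis) of YJ1206 over control for the 54 members tested (y axis), circles for cells and squares for tumors, with SE bars, grouped by role. In cells members spread from −0.87 to 0.92, whereas filled squares, the 32 members called in tumors, all lie below 0.

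In tumors the members called were all lower with YJ1206. Of the 54 tested, 32 were called lower and 0 higher by edgeR, against 26.8% of all 15558 genes, 14.9% lower and 11.9% higher. In all, 40 members had an unadjusted p under 0.05, as did 6197 of the 15558 genes. Without vehicle library 2, Srpk2 and Srsf5 were called higher and 35 members lower. More genes passed in that fit, 5724 of 15810, with 2648 higher and 3076 lower. The median log2 fold change was −0.29, against 0.01 over all genes. All 3 treated libraries lay below all controls for 41 members and above them for 1, against 44.6% of all genes without overlap. The counts by role in tumors below are to be read against these shares. In a bulk tumor, fewer cells of a type and less RNA per cell cannot be told apart. All 32 calls kept their sign under the 6 scalings and without each library in turn, and 22 of them passed in each of those 6 fits. The 10 that did not were Hnrnpa0, Hnrnpa3, Hnrnpk, Hnrnpul2, Rbm39, Sf3a2, Sf3b2, Sf3b6, Srsf9 and Srsf10, and each of them was lost without vehicle library 3 and again without YJ1206 library 3. On log2(TPM + 1) Hnrnpll, Sf3b1 and Srrm1 were called lower as well. With libraries 1 and 2 alone, the members' median was −0.27 and 0 passed, where 1 of all 15684 genes did (0.00638%, lower). At an unadjusted p under 0.05 it was 23 of 54 members, against 3068 genes.

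Summed TPM of gene lists for other cell types and for proliferation did not all move in the direction of these falls. The summed TPM of 14 proliferation genes was 1374 to 1458 in vehicle and 332 to 616 in YJ1206 tumors, and all 14 were called lower, with a median log2 fold change of −1.62. The sum of 13 leukocyte markers was 223 to 403 in vehicle and 462 to 507 in YJ1206 tumors, with none of the 13 at 0. For 8 skeletal muscle markers it was 104 to 981 and 64.0 to 78.2, for 8 fibroblast markers 227 to 716 and 147 to 354, and for 7 endothelial markers 53.0 to 54.98 and 57.4 to 64.0. Of 8 epithelial markers the sum was 374 to 383 in vehicle and 633 to 694 in YJ1206 tumors, with 1 marker at 0 in each. In the TMM fit 2 of 11 leukocyte, 1 of 7 endothelial and 2 of 5 epithelial markers tested were called higher. Called lower were 7 of 7 muscle markers and 1 of 8 fibroblast markers, where 26.8% of all genes passed. The part of these lists in the results was not tested. In cells the 8 fibroblast and 7 endothelial markers were each under 1 TPM in every library. The proliferation sum there was 3480 to 3527 TPM with DMSO and 2821 to 2880 TPM with YJ1206, with 6 of 14 genes called higher and 6 lower in the TMM fit, 3 and 9 by total counts and 3 and 11 on log2(TPM + 1). The cell sums were 81.1 to 93.0 and 20.5 to 25.3 TPM for the muscle markers and 418 to 434 and 312 to 340 TPM for the epithelial markers. These sums rest on few genes, since 6 of 8 muscle and 5 of 8 epithelial markers were under 1 TPM in every DMSO library. Of 3 muscle markers tested, 1 was called higher and 1 lower in the TMM fit. Of 3 epithelial markers tested, 2 were called higher and 1 lower.

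Hnrnpd, whose protein AUF1 also binds AU-rich mRNA, fell most in tumors. It had 222, 205 and 217 CPM in vehicle tumors and 121, 133 and 122 CPM in YJ1206 tumors. Its log2 fold change was −0.77 ± 0.062 (SE, adjusted p = 7.7e-04), and it was −0.75 in libraries 1 and 2 alone. Hnrnpa2b1, the most abundant member there, had 998, 811 and 916 CPM in vehicle tumors and 654, 619 and 634 CPM in YJ1206 tumors. This gave −0.51 ± 0.081 (SE, adjusted p = 0.0047). Hnrnpdl had 213, 194 and 210.2 CPM in vehicle tumors and 153, 144 and 147 CPM in YJ1206 tumors (−0.47), and Hnrnpa1 had 781, 874 and 843 CPM in vehicle tumors and 608, 629 and 616 CPM in YJ1206 tumors (−0.43). The groups were separate for all 4 genes. Of 20 hnRNP genes, 15 were called lower, where 14.9% of all genes were. Besides these 4 they were Hnrnpab, Hnrnph1, Hnrnpl, Hnrnpm, Hnrnpul1, Hnrnpa3, Hnrnpu, Hnrnpf, Hnrnpul2, Hnrnpk and Hnrnpa0, from −0.41 to −0.20. Hnrnph3 (32.4, 23.2 and 30.4 CPM in vehicle tumors and 30.4, 26.5 and 28.0 CPM in YJ1206 tumors) had overlapping groups and a value of −0.02 ± 0.14 (SE, adjusted p = 0.94). Hnrnph2 (−0.10), Hnrnpr (−0.10), Hnrnpc (−0.21) and Hnrnpll (−0.36) did not pass either. With libraries 1 and 2 alone, Hnrnpa2b1 was at −0.51, Hnrnpdl at −0.46 and Hnrnpa1 at −0.42.

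Among SR protein genes 6 of 10 were called lower in tumors, against 14.9% of all genes. Srsf7 had 103, 87.3 and 98.6 CPM in vehicle tumors and 69.0, 67.4 and 64.6 CPM in YJ1206 tumors. Its change was −0.52 ± 0.076 (SE, adjusted p = 0.0037). Srsf1 had 442, 398 and 411 CPM in vehicle tumors and 297, 303 and 290.1 CPM in YJ1206 tumors (−0.49), and Srsf3 had 233, 235 and 236 CPM in vehicle tumors and 182, 169 and 171 CPM in YJ1206 tumors (−0.43). In each the treated libraries were all below the controls. Srsf2 (−0.29), Srsf10 (−0.29) and Srsf9 (−0.27) completed the 6. Srsf5 had 216, 305 and 246 CPM in vehicle tumors and 327, 268 and 280.4 CPM in YJ1206 tumors, groups that overlapped. Its value of 0.19 ± 0.13 (SE, adjusted p = 0.33) was the only positive one among SR proteins. Srsf6 was at −0.17 (adjusted p = 0.081), Srsf4 at −0.09 (adjusted p = 0.28) and Srsf11 at −0.08 (adjusted p = 0.37). In libraries 1 and 2 alone Srsf7 was at −0.48, Srsf1 at −0.49 and Srsf3 at −0.42.

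Of 11 SF3 and U2AF genes 9 were called lower in tumors, and the groups were separate in all 11. Over all genes 14.9% were called lower and 44.6% had separate groups. Sf3a3, part of the SF3A complex, had 59.2, 65.0 and 61.5 CPM in vehicle tumors and 42.7, 43.9 and 43.9 CPM in YJ1206 tumors. Its change was −0.51 ± 0.064 (SE, adjusted p = 0.0024). U2af1 had 65.0, 61.6 and 65.8 CPM in vehicle tumors and 46.9, 45.1 and 49.2 CPM in YJ1206 tumors (−0.45), and U2af2 had 221, 208 and 220.1 CPM in vehicle tumors and 170.1, 162 and 177 CPM in YJ1206 tumors (−0.35). Sf3b4 (−0.43), Sf3b3 (−0.38), Sf3a2 (−0.37), Sf3a1 (−0.33), Sf3b2 (−0.31) and Sf3b6 (−0.23) were also called. Sf3b1 had 378, 377 and 386 CPM in vehicle tumors and 346, 336 and 351 CPM in YJ1206 tumors. Here its value was −0.14 ± 0.048 (SE, adjusted p = 0.064), which did not pass, nor did Sf3b5 (−0.33, adjusted p = 0.11). With libraries 1 and 2 alone, Sf3a3 was at −0.52, U2af1 at −0.46, U2af2 at −0.38 and Sf3b1 at −0.15.

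Of 7 SR-related genes 2 were called in tumors and of 6 kinases 0, where 26.8% of all genes passed. With so few genes these counts are no result about either role. Tra2b had 164, 167 and 159.7 CPM in vehicle tumors and 134, 117 and 129 CPM in YJ1206 tumors (−0.37 ± 0.065 SE, adjusted p = 0.007) and Rbm39 had 258, 231 and 251 CPM in vehicle tumors and 223, 203 and 207 CPM in YJ1206 tumors (−0.23). These were the 2 of 7 SR-related genes called. Tra2a had 156, 107 and 138 CPM in vehicle tumors and 123, 99.7 and 113 CPM in YJ1206 tumors, which overlapped (−0.25). Srrm1 (−0.13), Rbm25 (−0.08), Srrm2 (−0.05) and Son (0.08) did not pass. Of the 6 kinases 0 were called by edgeR and 2 had an unadjusted p under 0.05. DESeq2 also called 0. Srpk2 was the only member with all treated libraries above the controls, at 62.9, 71.7 and 66.0 CPM in vehicle tumors and 82.7, 73.9 and 79.0 CPM in YJ1206 tumors. Its value was 0.23 ± 0.074 (SE, adjusted p = 0.056). Srpk1 had 186, 175 and 179 CPM in vehicle tumors and 170.1, 158 and 166 CPM in YJ1206 tumors (−0.13). Clk4 (−0.07), Clk1 (−0.05), Clk3 (0.02) and Clk2 (0.05) lay close to 0, and Clk2 had 53.2, 46.4 and 50.4 CPM in vehicle tumors and 50.4, 50.9 and 53.9 CPM in YJ1206 tumors. Libraries 1 and 2 alone gave −0.40 for Tra2b, −0.20 for Rbm39 and 0.22 for Srpk2.

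**Figure D3:**
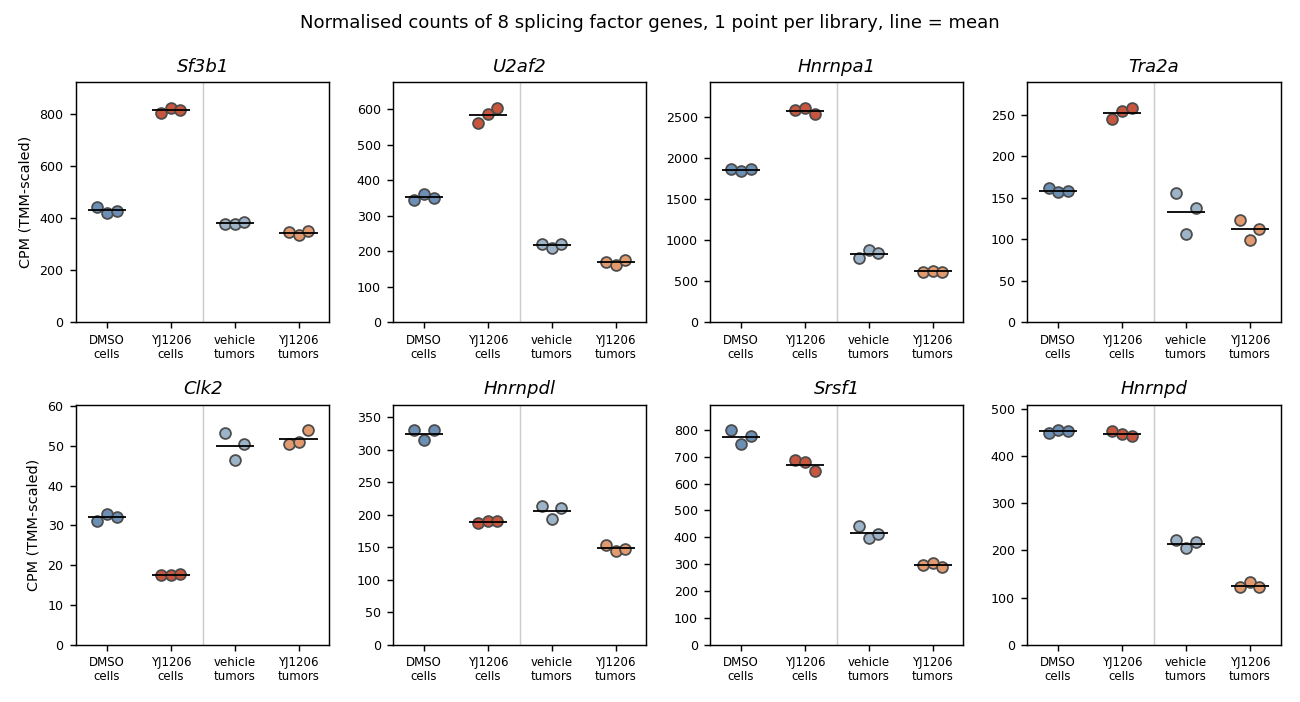
Each point is 1 library, in CPM scaled by TMM (y axis from 0), and each line the mean of 3 libraries, for 8 splicing factor genes in the 4 groups. Sf3b1, U2af2, Hnrnpa1 and Tra2a are higher with YJ1206 in cells, Clk2 is lower in cells, Hnrnpdl and Srsf1 are lower in both materials, and Hnrnpd is lower in tumors. Cells and tumors were scaled separately.

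The question of whether cells and tumors differed in their response was tested as an interaction over the 12 libraries. In edgeR 39 of 54 members passed, 35 with a lower effect in tumors and 4 with a higher one, where 46.8% of all 15328 genes passed (26% lower, 20.9% higher). The median difference was −0.44, against −0.01 over all genes. The split depended on scaling, with 28 lower and 11 higher by total counts, where the median over all genes moved to 0.20, and 27 and 12 on log2(TPM + 1), where it was 0.13. The share of all genes passing was 48.6% by total counts (18.7% lower, 29.8% higher) and 44.9% on log2(TPM + 1) (16.3% lower, 28.6% higher). With tumor libraries 1 and 2 alone 37 passed, where 38.8% of all 15411 genes did. Of the 28 members called in both materials, 20 were higher in cells and lower in tumors, 8 were lower in both and 0 were higher in both. Of all 2966 genes called in both, 27.5% were higher in cells and lower in tumors, 13.8% the reverse, 34.1% lower in both and 24.6% higher in both. By total counts 15 of 29 members went from higher in cells to lower in tumors (19.9% of all 3011 genes called in both), and on log2(TPM + 1) 12 of 30 (19% of 2540), the others being lower in both. The interaction passed for each of the 20, which were picked by their opposite calls. For 14 of them both signs held under every scaling: Hnrnpa0, Hnrnpa1, Hnrnpf, Hnrnpk, Hnrnpm, Rbm39, Sf3a1, Sf3a2, Sf3a3, Sf3b3, Sf3b4, Sf3b6, U2af1 and U2af2. The largest differences in the TMM fit were those of U2af1 (−1.16 ± 0.068 SE, adjusted p = 3.7e-08), U2af2 (−1.11 ± 0.068 SE, adjusted p = 4.6e-08) and Sf3b1 (−1.10 ± 0.051 SE, adjusted p = 6.5e-09). The 4 with a higher effect in tumors were Clk2 (0.89 ± 0.096 SE, adjusted p = 6.6e-06), Hnrnph3 (0.55), Hnrnpdl (0.27) and Srpk1 (0.20). Hnrnpdl thus fell in both, but by less in tumors. Lower in both were also Hnrnpa3, Hnrnph1, Hnrnpul1, Sf3b2, Srsf1, Srsf9 and Srsf10. For Srsf10, with −0.29 in each material in the TMM fit, the difference was −0.03 ± 0.065 (SE). By total counts and on log2(TPM + 1) Srsf10 was called with a higher effect in tumors.

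Counts and TPM together carry a further readout. A gene's count divided by its TPM is proportional to the average effective length of the transcripts counted, weighted by their abundance. Effective length is the length less about the mean fragment, estimated at 255 bases in cells and 215 bases in tumors. Log2 changes of length below are those of this ratio. Lengths in bases are full lengths, which change by less on the log2 scale. For 12 members the ratio followed a single line between libraries to within 1e-04 in both tables, so only 1 length had been counted. Each of these 12, Clk1, Hnrnpa0, Hnrnpu, Hnrnpul2, Sf3a1, Sf3a3, Sf3b1, Sf3b3, Sf3b4, Sf3b5, Srsf3 and Srsf4, has exactly 1 protein-coding transcript in GENCODE vM21, although they have 1 to 13 transcripts of any kind there. Over genes with 1 protein-coding transcript above 1000 bases, the ratio gave that transcript's length to within 1% for 99.1% of 2239 genes in cells and 98.9% of 2928 in tumors. For these genes the counted length was thus that of the coding transcript. The shares below assume that only coding transcripts were counted in the other members too, 46 of the 55 members having an annotated transcript with a retained intron or marked for nonsense-mediated decay.

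On this readout 9 of 42 members with more than 1 length passed in cells, 8 longer and 1 shorter with YJ1206 (limma, adjusted p under 0.05), against 7.92% of 7308 genes, 2.39% longer and 5.53% shorter. This scale, set by the genes with 1 length, was chosen after seeing the data. The planned scale, centred on the library median, called 32 of 54 members, 31 longer and 1 shorter, against 49.2% of 9882 genes, 43% longer and 6.13% shorter, and its 32 included all 12 members with 1 length, each as longer. In tumors 0 of 42 members passed in limma, as did 0 of all 8909 genes, with 5 members and 849 genes at an unadjusted p under 0.05.

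Srsf6 showed the largest change of length. Its average was 2672, 2667 and 2749.8 bases with DMSO and 3271, 3158 and 3199 bases with YJ1206. The log2 change was 0.28 ± 0.021 (SE, adjusted p = 0.0047). Srsf6 has 2 coding transcripts in vM21, of 515 and 3527 bases, so the average gives the share of each. The longer one made up 71.6%, 71.4% and 74.2% of its TPM with DMSO and 91.5%, 87.7% and 89.1% with YJ1206, or 72.4% ± 1.55 (SD, n = 3) against 89.5% ± 1.90 (SD, n = 3). The estimated mean fragment was 255 bases in cells and 215 bases in tumors. The 515-base transcript lies below the 1000 bases above which lengths were checked, so its share is approximate. The Srsf6 change was −0.09 by counts and −0.67 on log2(TPM + 1). In tumors the longer transcript held 57.8% ± 3.46 (SD, n = 3) and 54.9% ± 1.06 (SD, n = 3), with overlapping groups.

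Hnrnpdl, with coding transcripts of 2374 and 2752 bases, shifted too. The longer one held 49.6%, 51.7% and 49.0% with DMSO and 71.1%, 76.4% and 72.3% with YJ1206. Its average length changed by 0.05 ± 0.0042 (SE, adjusted p = 0.0048). The gene as a whole fell at the same time. In tumors the share was 32.8% ± 0.428 (SD, n = 3) and 30.1% ± 1.04 (SD, n = 3) (adjusted p = 0.56), groups that did not overlap but differed little. For Srsf2, with transcripts of 1326 and 1899 bases, the longer held 90.2% ± 0.503 (SD, n = 3) with DMSO and 92.6% ± 0.174 (SD, n = 3) with YJ1206 in cells (log2 length change 0.01 ± 0.0019 SE, adjusted p = 0.031). In tumors it held 68.9%, 73.5% and 69.5% with vehicle and 54.1%, 57.1% and 56.4% with YJ1206. These tumor groups did not overlap and lay in the other direction, but the test did not pass (adjusted p = 0.12). Tra2b, by contrast, had 39.2% ± 1.48 (SD, n = 3) and 40.1% ± 2.88 (SD, n = 3) of its longer transcript in cells, with overlapping groups.

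Clk4, with 4 coding transcripts, averaged 1477, 1403 and 1419 bases with DMSO and 1663, 1701 and 1632 bases with YJ1206, a log2 change of 0.26 ± 0.032 (SE, adjusted p = 0.016). Hnrnpa3 averaged 2426, 2340.0 and 2353 bases and 2622, 2584 and 2659 bases (0.16 ± 0.021 SE, adjusted p = 0.018). In both genes every treated library was longer than every control. U2af1 was the only member called shorter, at 876, 859.6 and 865 bases against 821, 839 and 819 bases. Its effective length changed by −0.10 ± 0.019 (SE, limma, adjusted p = 0.048). Hnrnpd (0.07), Hnrnpab (0.04) and Hnrnpa1 (0.005) were called longer by small amounts. Srsf6, Hnrnpdl and Hnrnpab passed without each of the 6 libraries in turn. The calls of Clk4, Hnrnpa3, Hnrnpd, Hnrnpa1, Srsf2 and U2af1 passed in only 1 or 2 of those 6 fits, though no sign changed.

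**Figure D4:**
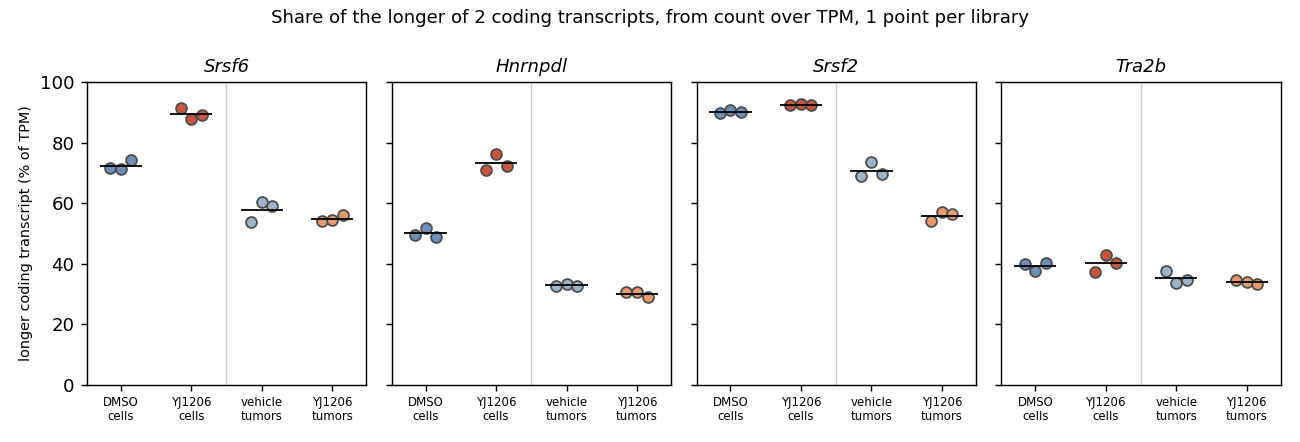
Each point is 1 library and gives the share (%) of a gene's TPM held by the longer of its 2 coding transcripts, computed from count over TPM, and each line is the mean of 3. Srsf6 and Hnrnpdl are higher with YJ1206 in cells, Srsf2 is lower with YJ1206 in tumors, and Tra2b overlaps between groups in both materials.

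Other splicing genes were taken from fixed lists. Their counts, here and in the next paragraph, are to be read against the shares of all genes called. In cells 37.8% of all genes were higher and 38.3% lower in the TMM fit. It was 28% and 49.7% by total counts, and 21.4% and 52% on log2(TPM + 1). In tumors 11.9% were higher and 14.9% lower. Splits near these shares are no result about a list. Of 22 core snRNP genes 17 were called higher and 3 lower in cells (median 0.30), and 0 higher and 14 lower in tumors (median −0.29). Snrpd3, an Sm ring protein, was at 0.84 ± 0.032 (SE, adjusted p = 9.4e-19) in cells, while Prpf31, a tri-snRNP protein, was at −1.32 ± 0.050 (SE, adjusted p = 8.5e-19) in cells and −0.56 ± 0.084 (SE, adjusted p = 0.0042) in tumors. Of 20 genes of the Prp19 complex and helicases 15 were higher and 1 lower in cells (median 0.31) and 10 were lower in tumors (median −0.23), led by Slu7 (1.23 ± 0.049 SE, adjusted p = 2.4e-18) and Dhx38 (1.14 ± 0.035 SE, adjusted p = 6.4e-21) in cells and by Cwc22 (−0.48 ± 0.078 SE, adjusted p = 0.0052) in tumors. By total counts 12 core snRNP genes were called higher and 6 lower in cells, and 13 and 5 of the Prp19 and helicase list. On log2(TPM + 1) it was 6 higher and 10 lower, and 7 and 6. Of 27 other regulators tested in cells 13 were higher and 11 lower (7 and 14 by total counts, 5 and 17 on log2(TPM + 1)), with the epithelial regulator Esrp2 at −1.27 ± 0.075 (SE, adjusted p = 1.2e-14) and Tia1 at −0.96 ± 0.042 (SE, adjusted p = 1.8e-17), and of 28 in tumors 2 were higher and 14 lower, with Mbnl3 at −0.81 ± 0.087 (SE, adjusted p = 0.0017) and Rbm5 at 0.49 ± 0.073 (SE, adjusted p = 0.0041).

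Of 15 SR-like accessory factors 7 were higher and 6 lower in cells (5 and 8 by total counts, 4 and 10 on log2(TPM + 1)), and 1 higher and 4 lower in tumors. Tnpo3, which imports phosphorylated SR proteins into the nucleus, was at 1.20 ± 0.026 (SE, adjusted p = 5.5e-24) in cells. Rnps1 was at −0.49 ± 0.062 (SE, adjusted p = 0.0024) in tumors. Of 16 genes of the exon junction complex and nonsense-mediated decay 10 were higher and 5 lower in cells (8 and 6 by total counts, 7 and 6 on log2(TPM + 1)) and 6 were lower in tumors. Here Eif4a3, the helicase that anchors the junction complex, was at 1.04 ± 0.035 (SE, adjusted p = 4.5e-20) in cells, and Magohb at −0.89 ± 0.12 (SE, adjusted p = 0.0029) in tumors. All these tumor counts were 0 with libraries 1 and 2 alone. Pooled over the 5 lists, 88 genes were called in cells and 51 in tumors. The latter became 26 without vehicle library 3, where 1938 of all 15867 genes passed. It was 32 without YJ1206 library 2 (2739 of 15786 genes) and 23 without YJ1206 library 3 (1877 of 15970 genes).

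Gene span was described across members. Spans ran from 2678 bases (Hnrnpa0) to 181354 bases (Srpk2), with a median of 15237 (GENCODE vM21). Across 54 members, Spearman's rho of span with log2 fold change was 0.30 in cells and 0.28 in tumors, against −0.05 and −0.04 over all genes with a span. Genes are not independent replicates, and the points share libraries and depth.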

How the data were processed

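Gene counts and TPM (transcript abundance corrected for length) of 12 mouse libraries were analysed. The authors deposited estimated counts and TPM values per gene. The submitters' processing notes name kallisto, GRCm38 and mm10, with no versions. Estimated counts were rounded to whole numbers. Cells and tumors, which are separate tables, were fitted separately with edgeR 4.0.16 (filterByExpr, TMM, quasi-likelihood test) in R 4.3.3, and together for the difference of effects. Adjusted p-values are Benjamini-Hochberg over all genes tested, with a threshold of 0.05. CPM values are counts scaled by TMM library size. Average effective length was log2(count / TPM), tested in limma 3.58.1 for genes with a mean of 50 or more counts. Alternatives used DESeq2 1.42.0, RLE or total-count scaling, no filter, limma on log2(TPM + 1) and log2(TPM + 0.1), a replicate block, and fewer libraries. Fold changes on the TPM scales understate those of low genes.

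Members and lists were chosen with earlier results of these data known. Named with values were the 2 highest and 2 lowest members of each role per material, all members of roles with 7 or fewer, those called in opposite directions, those changed in length and the 3 most abundant; further members are given as brief values chosen after seeing them. On simulated counts edgeR recovered 175 of 200 changed genes in cells (11826 genes) and 117 of 200 in tumors (15558 genes). Of those changed 2-fold it recovered 81 of 92 in cells and 78 of 89 in tumors. All member changes in tumors were smaller than 2-fold, from −0.77 to 0.23 on the log2 scale. The length test in limma recovered 147 of 200 changed genes in cells (9882 genes) and 136 of 200 in tumors (12640 genes). Columns without a sample numbered 0. Pseudogene copies were left out.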

Additional observations from a re-analysis of the deposited data

Results flagged for a closer look

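The effect of YJ1206 differed between tumors and cells, by the interaction test in edgeR (adjusted p under 0.05), for 34 of the 48 members named by rule, where 46.8% of all genes passed. Of the 48, 20 were named for opposite calls in the 2 materials, so this count is a description. Values are the log2 effect in tumors minus that in cells. It was lower in tumors for 30. Among SF3 and U2AF genes the difference was -1.16 for U2af1, -1.11 for U2af2, -1.10 for Sf3b1, -1.02 for Sf3a3, -0.92 for Sf3b3, -0.90 for Sf3b6, -0.86 for Sf3b4, -0.81 for Sf3a2 and -0.69 for Sf3a1. Among hnRNP genes it was -1.01 for Hnrnpr, -0.94 for Hnrnpm, -0.93 for Hnrnpa1, -0.93 for Hnrnpa0, -0.79 for Hnrnpd, -0.77 for Hnrnpf, -0.64 for Hnrnpa2b1, -0.61 for Hnrnpl, -0.58 for Hnrnpk, -0.45 for Hnrnpu and -0.42 for Hnrnpab. SR protein genes had -0.85 for Srsf7, -0.64 for Srsf3, -0.49 for Srsf4 and -0.31 for Srsf1. The SR-related genes had -0.96 for Tra2a, -0.61 for Rbm39, -0.49 for Tra2b, -0.36 for Srrm1 and -0.32 for Srrm2, and of the kinases Clk3 had -0.32. The effect was higher in tumors for 4, with 0.89 for Clk2, 0.55 for Hnrnph3, 0.27 for Hnrnpdl and 0.20 for Srpk1. The interaction of Hnrnph3 was lost without YJ1206 cell library 2 (adjusted p = 0.051), as was that of Srpk1 (adjusted p = 0.066). Under other scalings the difference of Clk3 was -0.10 (adjusted p = 0.34) by total counts and turned to 0.04 (limma, adjusted p = 0.71) on log2(TPM + 1). Srrm1, Srrm2 and Srsf1 passed on neither of these scales, and Tra2b did not on log2(TPM + 1) (limma, adjusted p = 0.059). Cells and tumors differ in host, dose, duration, table and, by the labels, RNA type (polyA or total), which cannot be told apart here. The DMSO and YJ1206 cell libraries also come from separate number series, so a difference in preparation may enter each of these differences.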

How the results depend on the processing

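In cells the number of members called was 47 to 51 under the other scalings, tools and filters and 47 to 49 without each library in turn. In tumors it was 31 to 35, and 22 to 37 without each library, but 0 with libraries 1 and 2 of each group alone. The difference between materials gave 37 to 42. The members' median in cells reversed to −0.042 by total counts, −0.21 on log2(TPM + 1) and −0.21 on log2(TPM + 0.1). It is centred differently by construction, since the median over all genes moved from −0.02 to −0.20, −0.24 and −0.30.

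By total counts, the values in cells reversed to -0.0919 for Hnrnpa2b1, -0.14 for Hnrnph2, -0.0908 for Hnrnpu, -0.0776 for Son, -0.00619 for Srsf3 and -0.0928 for Tra2b. On log2(TPM + 1) and log2(TPM + 0.1), respectively, they reversed to -0.0758 and -0.0775 for Clk3, -0.22 and -0.22 for Hnrnpa2b1, -0.25 and -0.25 for Hnrnph2, -0.14 and -0.14 for Hnrnpl, -0.21 and -0.21 for Hnrnpu, -0.25 and -0.25 for Son, -0.21 and -0.21 for Srrm1, -0.0895 and -0.0900 for Srrm2, -0.13 and -0.13 for Srsf3, -0.0513 and -0.0515 for Srsf7 and -0.23 and -0.23 for Tra2b. In tumors Clk3 was at -0.0338 and -0.0344 and Hnrnph3 at 0.0365 and 0.0375 on these scales, and Hnrnph3 at 0.0316 with libraries 1 and 2 alone. Without single libraries, values near 0 changed sign, with ranges of -0.0860 to 0.0600 for Clk1 in cells, -0.0180 to 0.00420 for Hnrnpab in cells, -0.00234 to 0.0962 for Clk2 in tumors, -0.0242 to 0.0485 for Clk3 in tumors, -0.15 to 0.0825 for Hnrnph3 in tumors and -0.0297 to 0.14 for Son in tumors. Tra2b in cells lost its call without DMSO library 2 or 3 or YJ1206 library 2.

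For average length in cells, the planned test called 32 members, and 7 to 33 without each library. The lowest counts came without YJ1206 library 1 (7, against 453 of 9912 genes) and YJ1206 library 3 (9, against 457 of 9932 genes). Without DMSO library 2 the count was 11, against 717 of 9839 genes. On the scale set by genes with 1 length, chosen after seeing the data, it was 9. Without each library it was 6, 4 and 3 for DMSO libraries 1 to 3 and 3, 6 and 5 for YJ1206 libraries 1 to 3. In tumors the planned test called 0 members, and 0 without each library. It called 21 with a minimum of 10 counts, where 6066 of all 15432 genes passed, and 21 with 500 (2416 of 7259 genes). Centred on the library mean it also called 21 (4669 of 12640 genes). The cause was not tested. For the other splicing genes, the count in tumors was 51 and ranged from 23 to 62 without each library, with 0 in libraries 1 and 2 alone.

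Samples with the same replicate number did not deviate together (correlations from −0.026 to 0.002), so the number does not pair them. With the replicate block 48 members were called in cells, 31 in tumors and 39 for the difference, and for length in cells 6 on the planned and 2 on the added scale. Each group has 3 libraries, which limits calls near the threshold.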
